A study of Danio rerio with 5 samples.

Results

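Transcripts of 7 genes, grouped here under the name anterior neural and placode regulators, were followed in whole zebrafish embryos with and without Dicer and miR-430. The genes are six3 (ENSDARG00000054879), six4a (ENSDARG00000004695), otx2 (ENSDARG00000011235), tbx3 (ENSDARG00000002216), irx7 (ENSDARG00000002601), tbr1 (ENSDARG00000004712) and epha7 (ENSDARG00000004635). They are 7 of the 26158 genes counted, and 6 were taken by identifier and otx2 by its symbol. All 7, with no member left out, were among the 14097 genes measured, meaning a mean of at least 1 CPM (counts scaled to library size, by TMM factors) over the 5 libraries. They were chosen by their count ratios between these same libraries, so every level and ratio below describes these libraries and is no test. Where in the embryo the genes were expressed was not measured, and the roles given are background knowledge.

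During gastrulation the ectoderm that will form forebrain, midbrain and eyes is kept free of posteriorising Wnt, Fgf and retinoic acid signals, and it turns on homeobox genes such as otx2 and six3. Ectoderm at its border becomes the placodes, which form the nose, lens, ear and cranial sensory ganglia and use factors of the sine oculis and Eya families. miR-430 is the abundant microRNA family of the early zebrafish zygote and clears many maternal transcripts. Embryos without maternal and zygotic Dicer lack mature miR-430 together with other Dicer-dependent microRNAs, and are known for defects of gastrulation and brain shape that injected miR-430 duplex partly corrects.

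Poly(A)+ RNA was sequenced from 5 pools of 15 embryos at 6 h after fertilization (shield stage), with 1 library per group. The groups were untreated wild type of the strain TU/AB/TL/TLF, untreated MZdicer (hu896/hu896), and MZdicer (hu896/hu896) embryos that had received 1 of 3 forms of miR-430 at the 1-cell stage. These forms were a duplex, a hairpin named for Argonaute 2 (which can cut it without Dicer), and a version of that hairpin carrying 3 phosphorothioate linkages (3xPS hairpin). Each was given as 1 nl of a 25 µM stock. No control injection is analysed here, so miR-430 and the injection itself cannot be told apart. The 2 genotypes have different strain labels, so strain, developmental pace and the loss of Dicer cannot be told apart either.

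Total gene counts were 14867084 in MZdicer and 24123349 to 26300080 in the other libraries. DICER1 (ENSDARG00000001129) was at 36.5 CPM in wild type and at 20.1 to 23.0 CPM in the 4 MZdicer libraries. With 1 library per group no difference can be set against a spread between replicates. Values in square brackets are 95% intervals for counting error alone, and since reads carry no molecular identifiers, copies of 1 molecule may be counted more than once. A call of higher or lower required log2(CPM + 0.5) values at least 1 apart, which is 2-fold, and an interval of the ratio that excluded 1. Folds given for single genes are ratios of CPM without the added 0.5. In bulk RNA, fewer cells of a type and less RNA per cell cannot be told apart.

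Levels of six3, six4a, otx2 and tbx3 were highest in wild type, lowest in MZdicer and closest to wild type, among the injected libraries, with the duplex. six3 encodes a homeodomain repressor that sets up the forebrain and eye field by holding Wnt signalling down. It was at 11.2 CPM in the wild-type pool and 0.602 CPM in the MZdicer pool, against 5.01, 2.64 and 2.66 CPM after injection of duplex, hairpin and 3xPS hairpin. The MZdicer value rests on 9 reads against 284 in wild type, and both hairpin libraries lay between MZdicer and the duplex. six4a belongs to the sine oculis family, which acts with Eya partners in placodes and muscle. Its levels were 16.7 CPM in the wild-type pool and 1.47 CPM in the MZdicer pool, against 10.2, 4.95 and 3.47 CPM after injection of duplex, hairpin and 3xPS hairpin. With the 5 libraries ordered by six4a level, the counting interval of each neighbouring pair excluded equality. The smallest step was hairpin over 3xPS hairpin, at 1.43 [1.07, 1.90]. These intervals leave out any spread between replicates.

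otx2 encodes the homeodomain factor that gives forebrain and midbrain their identity, and it is also used by early anterior mesendoderm. Its levels were 6.96 CPM in the wild-type pool and 0.736 CPM in the MZdicer pool, against 6.20, 2.07 and 1.49 CPM after injection of duplex, hairpin and 3xPS hairpin. The otx2 value in MZdicer rests on 11 reads. Wild type and duplex could not be separated for otx2 by counting error (ratio 1.12 [0.901, 1.40]), nor could hairpin and 3xPS hairpin (1.39 [0.890, 2.18]). tbx3 encodes a T-box repressor, known in mammals for limb, heart and hypothalamus development. It was at 11.4 CPM in the wild-type pool and 2.14 CPM in the MZdicer pool, against 10.1, 4.87 and 2.99 CPM after injection of duplex, hairpin and 3xPS hairpin. For tbx3 the wild type and duplex levels differed by less than counting error (1.13 [0.955, 1.35]), as did the 3xPS hairpin and MZdicer levels (1.40 [0.911, 2.18]).

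**Figure D1:**
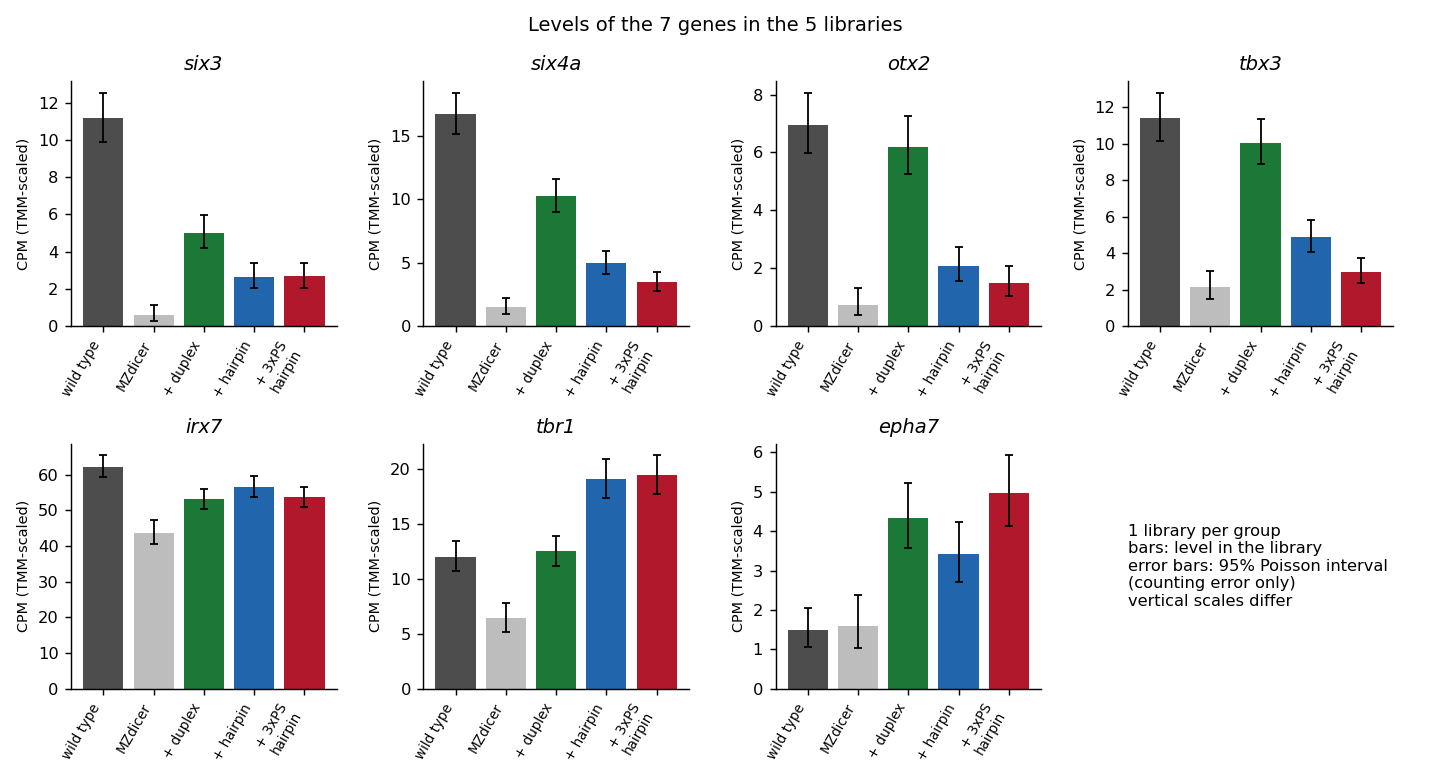
TMM-scaled CPM (vertical axes, linear from 0, each gene on its own scale) of the 7 genes in the 5 libraries, with 95% Poisson intervals of the counts as error bars. For six3, six4a, otx2 and tbx3 the duplex bar stands nearest to wild type, tbr1 is highest in both hairpin libraries, and epha7 is higher in the 3 injected libraries than in wild type or MZdicer.

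The other members had different profiles. irx7 encodes an Iroquois homeodomain factor that in zebrafish acts in the midbrain and hindbrain region. Its levels lay within a narrow range, at 62.2 CPM in the wild-type pool and 43.7 CPM in the MZdicer pool, against 53.1, 56.7 and 53.7 CPM after injection of duplex, hairpin and 3xPS hairpin. The highest and lowest irx7 values differed by 1.42-fold, and the 3 injected libraries could not be ordered by counting error. tbr1 is a T-box gene known for its part in forebrain neurons. Its levels were 12.0 CPM in the wild-type pool and 6.42 CPM in the MZdicer pool, against 12.5, 19.1 and 19.5 CPM after injection of duplex, hairpin and 3xPS hairpin. The hairpin levels were the highest and differed from each other by less than counting error (1.02 [0.895, 1.16]).

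epha7 encodes an Eph receptor tyrosine kinase, which binds ephrins on neighbouring cells and takes part in sorting and boundary formation. Its levels were 1.49 CPM in the wild-type pool and 1.60 CPM in the MZdicer pool, against 4.34, 3.41 and 4.97 CPM after injection of duplex, hairpin and 3xPS hairpin. Wild type and MZdicer could not be separated for epha7 (MZdicer over wild type 1.07 [0.616, 1.84], 24 against 38 reads), while all 3 injected libraries were above both. After rounding, the deposited estimated counts of the 7 genes equalled their whole-number counts in every library.

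Per kilobase, irx7 had the highest level of the 7 genes in wild type, at 52.4 CPM per kb, followed by six4a at 7.06 and six3 at 6.35 CPM per kb. tbr1 (3.12 CPM per kb), otx2 (2.98 CPM per kb) and tbx3 (2.95 CPM per kb) were close to each other there, and epha7 was lowest at 0.236 CPM per kb. In MZdicer the second place went to tbr1, at 1.67 CPM per kb, and six4a, tbx3, six3 and otx2 lay between 0.314 and 0.621 CPM per kb.

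MZdicer was set against wild type to find transcripts that differ without Dicer. Of the 7 genes, 4 were called lower and 0 higher, where 5.81% of all measured genes were lower and 16.3% higher. six3 was 18.6-fold lower [9.64, 41.0], six4a 11.4-fold lower [7.41, 18.3], otx2 9.47-fold lower [5.16, 19.3] and tbx3 5.33-fold lower [3.69, 7.94]. tbr1, at 1.88-fold lower [1.49, 2.38], and irx7, at 1.42-fold lower [1.30, 1.56], stayed under the threshold, and epha7 had the ratio near 1 given above. The median log2 ratio of the 7 genes was -2.17, beside 0.02 for all measured genes. These values took part in choosing the genes, so nothing is read from the difference.

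Each injected library was set against uninjected MZdicer, to see how the 7 transcripts stand once miR-430 is returned. All 3 comparisons, and that of MZdicer against wild type, use the same MZdicer library. A low count there raises every ratio after injection and lowers that of MZdicer over wild type. Being lower in MZdicer and higher after injection are thus not separate observations, here or for the other genes below. With the duplex 5 of the 7 genes were called higher and 0 lower, where 1.5% of all measured genes were higher and 6% lower. otx2 was 8.42-fold higher than in MZdicer [4.58, 17.2], six3 8.33-fold [4.25, 18.6], six4a 6.95-fold [4.49, 11.3], tbx3 4.70-fold [3.25, 7.02] and epha7 2.71-fold [1.73, 4.40]. tbr1 (1.95-fold [1.55, 2.48]) and irx7 (1.21-fold [1.10, 1.33]) were above MZdicer without being called.

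With the hairpin 5 genes were called higher and 0 lower, beside 0.489% and 1.99% of all measured genes. six3 was 4.38-fold higher than in MZdicer [2.17, 10.01], six4a 3.37-fold [2.13, 5.57], tbr1 2.98-fold [2.39, 3.75], otx2 2.81-fold [1.45, 5.99] and tbx3 2.28-fold [1.53, 3.48]. epha7 had a ratio of 2.12 [1.34, 3.50] but was not called, because the added 0.5 CPM brings its log2 difference to 0.89. irx7 was at 1.30-fold [1.18, 1.42].

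With the 3xPS hairpin 4 genes were called higher and 0 lower, beside 0.454% and 1.09% of all measured genes. six3 was 4.43-fold higher than in MZdicer [2.20, 10.1], epha7 3.09-fold [1.99, 5.01], tbr1 3.03-fold [2.43, 3.81] and six4a 2.36-fold [1.46, 3.96]. otx2 had a ratio of 2.03 [1.01, 4.41], tbx3 of 1.40 [0.911, 2.18] and irx7 of 1.23 [1.12, 1.35], and none of these was called. Thus all 7 genes had ratios above 1 in each of the 3 injected libraries, with median log2 ratios of 2.0 (duplex), 1.06 (hairpin) and 1.01 (3xPS hairpin). The medians of all measured genes were 0.01, -0.01 and -0.01.

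**Figure D2:**
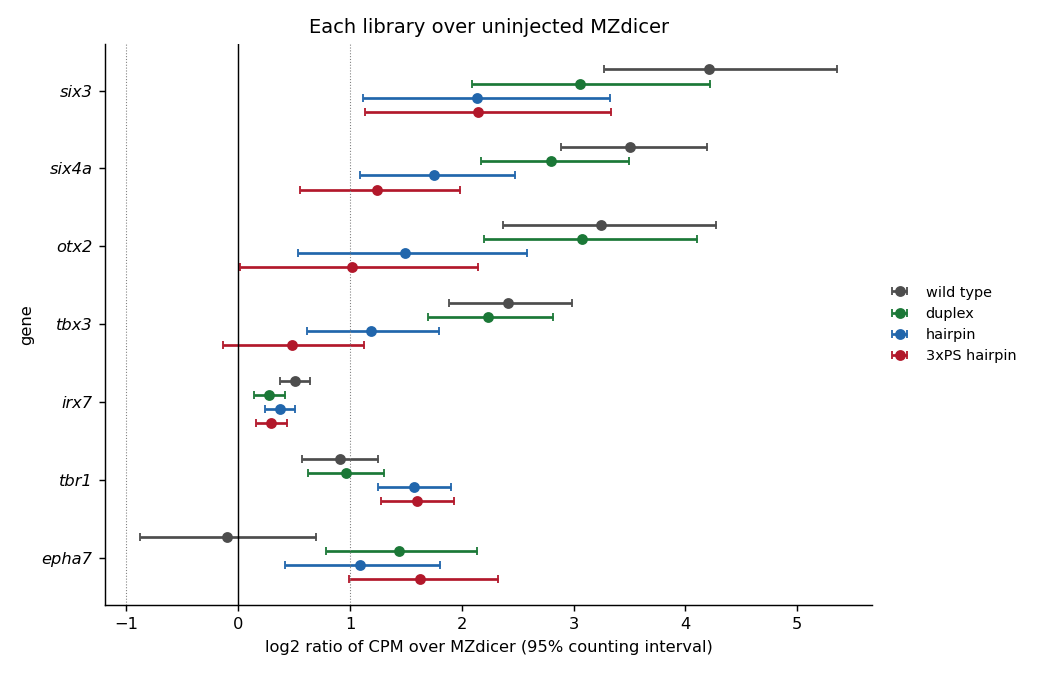
Log2 ratio of CPM in wild type and in each injected library over uninjected MZdicer (horizontal axis, points with 95% counting intervals, dotted lines at 2-fold) for the 7 genes. six3, six4a, otx2 and tbx3 follow the order wild type, duplex, hairpins, whereas tbr1 has its largest ratios with the hairpins, at 2.98-fold and 3.03-fold, and epha7 has a ratio near 1 in wild type.

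Each injected library was also placed along the difference in CPM between MZdicer and wild type, which restates the levels above on another scale. otx2 with the duplex stood at 87.7% ± 10.8 (counting SE) of the difference, tbx3 at 85.5% ± 9.21, six4a at 57.4% ± 5.24 and six3 at 41.7% ± 5.08. With the hairpin these 4 genes stood between 19.3% (six3) and 29.5% (tbx3), and with the 3xPS hairpin between 9.14% (tbx3) and 19.5% (six3). irx7 stood at 50.6% ± 10.02 (duplex), 69.9% ± 10.5 (hairpin) and 53.8% ± 10.1 (3xPS hairpin). tbr1 stood at 108% ± 18.3 with the duplex, and past wild type in both hairpin libraries, at 226% ± 35.1 (hairpin) and 232% ± 36.0 (3xPS hairpin). No such share was computed for epha7, whose wild type and MZdicer levels could not be separated.

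**Figure D3:**
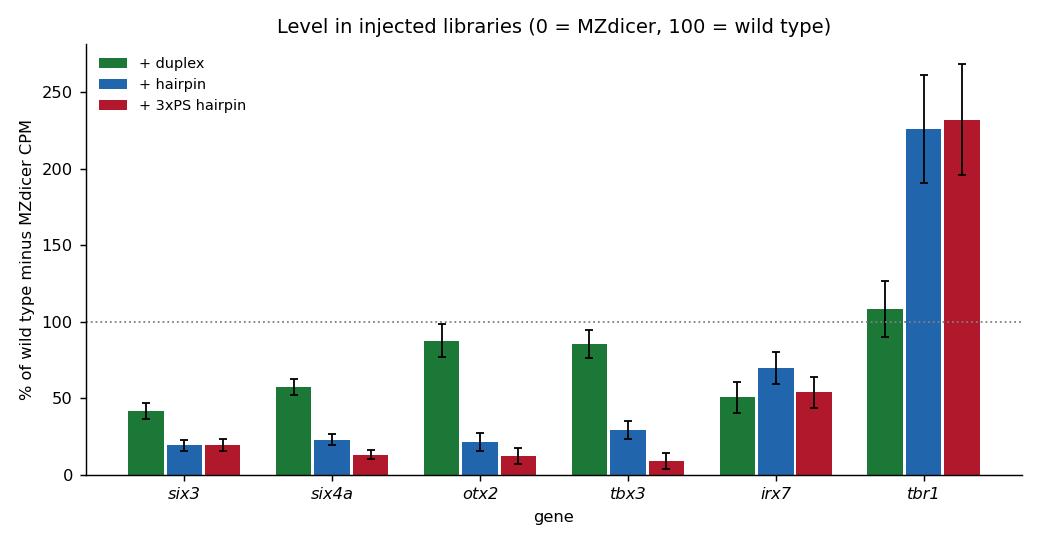
Level in each injected library as a percentage of the difference in CPM between wild type and MZdicer (vertical axis from 0, the MZdicer level; dotted line, wild type), for the 6 genes with a separable difference; error bars are the counting SE. The duplex bars of otx2 and tbx3 reach 87.7% and 85.5%, the hairpin bars of six3, six4a, otx2 and tbx3 stay at or below 29.5%, and the hairpin bars of tbr1 reach 226% and 232%.

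The 3 injected forms were given in equal volume and stock concentration, and were compared in 3 pairs for each gene, without p-values. By their names, the hairpin joins in 1 molecule what the duplex holds as separate strands, and the 3xPS hairpin differs from the hairpin by its 3 phosphorothioate linkages. Between hairpin and duplex, otx2 was called lower with the hairpin, at 2.99-fold [2.17, 4.19], where 0.802% of all measured genes were called lower and 2.24% higher. tbx3 (2.07-fold lower [1.66, 2.59]), six4a (2.06-fold lower [1.66, 2.58]) and six3 (1.90-fold lower [1.40, 2.60]) had intervals that excluded equality but log2 differences under 1 after adding 0.5 CPM. tbr1 went the other way, at 1.53-fold higher with the hairpin [1.32, 1.77]. For irx7 (1.07 [0.990, 1.15]) and epha7 (0.785 [0.584, 1.05]) the interval of hairpin over duplex included 1.

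Between 3xPS hairpin and duplex, 3 genes were called lower with the 3xPS hairpin and 0 higher, beside 0.582% and 3.35% of all measured genes. These were otx2 (4.15-fold [2.88, 6.11]), tbx3 (3.37-fold [2.59, 4.43]) and six4a (2.94-fold [2.30, 3.80]). six3 was 1.88-fold lower [1.39, 2.57] and tbr1 1.56-fold higher [1.35, 1.798], both under the threshold. irx7 (1.01 [0.937, 1.09]) and epha7 (1.14 [0.877, 1.49]) had intervals that included 1.

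Between the 2 hairpins no gene of the 7 was called, where 0.497% of all measured genes were higher and 0.149% lower with the 3xPS hairpin. tbx3 was 1.63-fold lower with the 3xPS hairpin [1.21, 2.21], six4a 1.43-fold lower [1.07, 1.90] and epha7 1.46-fold higher [1.09, 1.95], and these 3 intervals excluded equality. six3 (1.01 [0.706, 1.44]), tbr1 (1.02 [0.895, 1.16]), irx7 (0.948 [0.878, 1.02]) and otx2 (0.722 [0.459, 1.12]) did not differ beyond counting error, and their intervals give the differences that remain possible on that error alone.

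**Figure D4:**
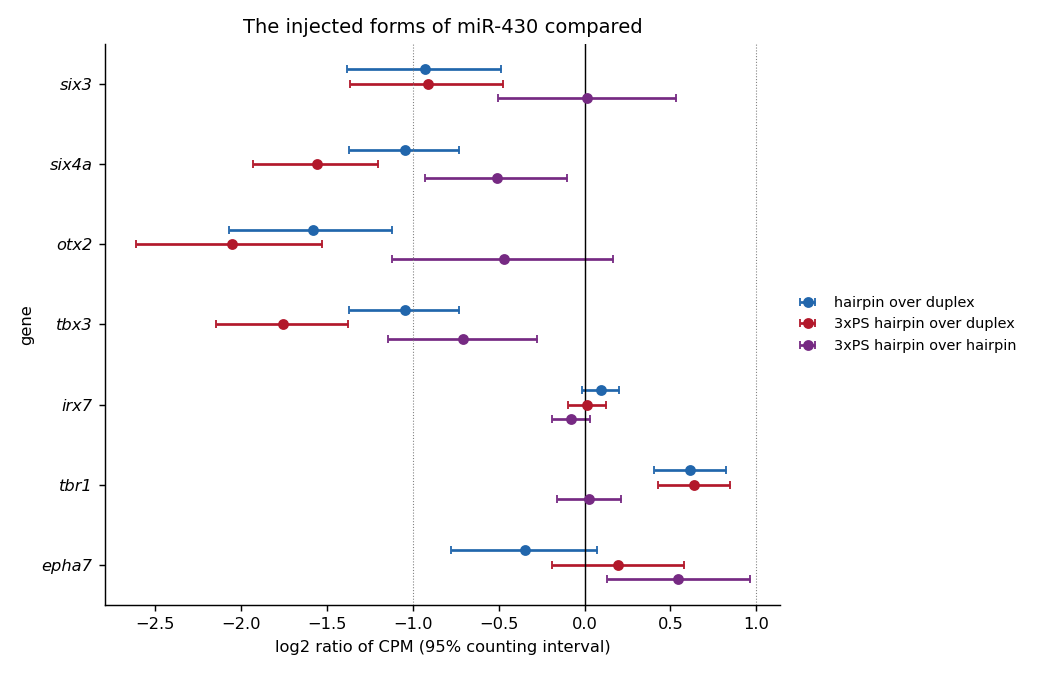
Log2 ratio of CPM between pairs of injected libraries (horizontal axis, points with 95% counting intervals, dotted lines at 2-fold) for the 7 genes. Both hairpins lie left of the duplex for six3, six4a, otx2 and tbx3 and right of it for tbr1, and the 3xPS hairpin over hairpin points lie within 1 log2 unit of 0.

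Against wild type, the duplex library had 1 of the 7 genes called lower and 1 higher, beside 3.21% and 8.5% of all measured genes. The lower gene was six3 (2.23-fold [1.802, 2.77]) and the higher gene epha7 (2.90-fold [1.99, 4.32]). six4a was 1.64-fold lower with the duplex than in wild type [1.40, 1.92] without being called. The hairpin library had 4 genes lower and 0 higher, beside 5.71% and 13.1% of all measured genes. In it six3 was 4.23-fold below wild type [3.22, 5.63], six4a 3.38-fold [2.75, 4.16], otx2 3.36-fold [2.45, 4.69] and tbx3 2.34-fold [1.89, 2.92]. The 3xPS library had the same 4 genes lower, by 3.82-fold (tbx3) to 4.82-fold (six4a), and epha7 higher by 3.32-fold [2.29, 4.91], beside 5.41% and 14.7% of all measured genes. tbr1 was above wild type with both hairpins, at 1.59-fold [1.37, 1.84] and 1.62-fold [1.40, 1.87], below the threshold.

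Of 49 other genes of the T-box, sine oculis, Iroquois, Otx and EphA families, 23 were measured. Against wild type, 4 of the 23 (17.4%) were called higher and 6 (26.1%) lower in MZdicer, beside 16.3% and 5.81% of all measured genes, so the higher share was near that of all genes. Against MZdicer, 5 (21.7%) were called higher and 2 (8.70%) lower with the duplex, beside 1.5% and 6% of all measured genes. In each hairpin library 3 (13.04%) were called higher and 0 lower, beside 0.489% (hairpin) and 0.454% (3xPS hairpin) of all measured genes higher. The lower shares of all measured genes were 1.99% and 1.09%. six4b (ENSDARG00000031983), the relative of six4a, was at 6.77 CPM in the wild-type pool and 0.669 CPM in the MZdicer pool, against 2.21, 2.11 and 1.90 CPM after injection of duplex, hairpin and 3xPS hairpin. It was called higher than MZdicer in all 3 injected libraries, whose levels lay close together, unlike those of six4a.

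The second identifier with the symbol SIX3, ENSDARG00000058008, was at 0.905 CPM in the wild-type pool and 1.34 CPM in the MZdicer pool, against 3.24, 2.96 and 2.50 CPM after injection of duplex, hairpin and 3xPS hairpin. Its levels were highest in the injected libraries, so the 2 six3 genes differed in their order. How reads matching more than 1 gene were counted is not stated, which leaves reads of near-identical copies uncertain. otx2a (ENSDARG00000030703) and OTX1 (ENSDARG00000094992), which overlap with otx2 in function, had far more reads than otx2 and lay lower in MZdicer without being called. The otx2a level was 86.0 CPM in wild type, 80.0 to 83.5 CPM in the injected libraries and 49.3 CPM in MZdicer. The OTX1 level was 42.9 CPM in wild type, 41.7 to 50.6 CPM in the injected libraries and 29.7 CPM in MZdicer.

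Among T-box genes, TBX1, known for pharyngeal and ear development, was at 15.6 CPM in the wild-type pool and 2.88 CPM in the MZdicer pool, against 10.6, 8.36 and 7.35 CPM after injection of duplex, hairpin and 3xPS hairpin. It was called in all 3 injected libraries and in the MZdicer comparison, as six4a was. EOMES (ENSDARG00000006640), a maternally supplied T-box gene, went against these genes, at 11.8 CPM in the wild-type pool and 170 CPM in the MZdicer pool, against 23.1, 113 and 142 CPM after injection of duplex, hairpin and 3xPS hairpin. TBX5, known for its part in limb and heart, had 1.46 CPM in wild type, against 9.70 CPM in MZdicer and 22.2 CPM with the 3xPS hairpin, where it was called higher than MZdicer. The other relatives called lower in MZdicer were tbx16l (24.4 against 106 CPM in wild type), tbx6 (0.869 against 7.47 CPM) and six7 (4.15 against 10.4 CPM), and TBXT (ENSDARG00000039806) is described with the nearest genes. irx5b was called higher, at 7.89 CPM in MZdicer against 3.07 CPM in wild type. None of tbx16l, tbx6, six7 and irx5b was called in an injected library against MZdicer. Among Eph receptors, epha4b was called higher in MZdicer, at 2.07 CPM (31 reads), than in wild type, at 0.275 CPM (7 reads). With the duplex epha4b was at 0.671 CPM (17 reads), called lower than in MZdicer.

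Of 22 measured genes of the anterior neural plate, forebrain and midbrain, the 7 genes left out, 6 (27.3%) were called lower and 5 (22.7%) higher in MZdicer than in wild type, beside 5.81% and 16.3% of all measured genes, with a median log2 ratio of -0.37. With the duplex 6 (27.3%) were called higher and 2 (9.09%) lower, beside 1.5% and 6% of all measured genes, and 18 of the 22 ratios were above 1 (median 0.65). With each hairpin 1 (4.55%) was called higher and 1 (4.55%) lower, with medians of 0.49 and 0.41. Over all measured genes 0.489% (hairpin) and 0.454% (3xPS hairpin) were higher, and 1.99% and 1.09% lower. EOMES, otx2a, OTX1, IRX1, SIX3 (ENSDARG00000058008), six7 and irx5b are also among the relatives counted above. TCF7L1 is also among the signalling genes below, so these counts are not separate. The forebrain and eye factor lhx2a was 3.41-fold higher with the duplex [2.32, 5.17], the neural tube factor DBX1 (ENSDARG00000086393) 2.97-fold higher [2.03, 4.46] and IRX1 (ENSDARG00000056594) 2.09-fold higher [1.85, 2.37]. The other measured DBX1 identifier, ENSDARG00000001859, lay between 1.25 and 1.75 CPM and was not called in MZdicer or in any injected library. SP8 (ENSDARG00000056666), a zinc-finger gene, was 3.11-fold lower [2.71, 3.57], and the other lower gene of the list was EOMES (ENSDARG00000006640). lhx2a was also higher in MZdicer than in wild type, by 7.53-fold [3.25, 20.3] on 31 against 7 reads, so it did not follow six3 and otx2.

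Of 18 measured preplacodal and placode genes, 5 (27.8%) were called lower and 3 (16.7%) higher in MZdicer, with a median of -0.05. The higher share was near the 16.3% of all measured genes, of which 5.81% were lower. With the duplex 5 (27.8%) were called higher and 1 (5.56%) lower (median 0.30), beside 1.5% and 6% of all measured genes. The lower share was again near that of all measured genes. The hairpin library had 1 (5.56%) higher and 1 (5.56%) lower (median 0.17), beside 0.489% and 1.99% of all measured genes. The 3xPS library had 1 (5.56%) higher and 0 lower (median -0.01), beside 0.454% and 1.09%. six4b and six5 are also among the relatives counted above, and TP63, GATA2 and BMP4 are also in the epidermis list below. The preplacodal genes DLX3 (2.91-fold [1.89, 4.62]) and eya2 (2.28-fold [1.63, 3.25]) and the neural border gene msx1b (2.48-fold [1.99, 3.10]) were higher with the duplex. None of these was called with either hairpin. With the 3xPS hairpin DLX3 (1.53 CPM) and msx1b (5.29 CPM) were not above MZdicer (1.74 and 6.89 CPM). DLX3 and msx1b were called lower in MZdicer than in wild type, but eya2 was not (2.94 against 2.12 CPM). TP63, a regulator of basal epidermis, was called higher in MZdicer (16.2 CPM) than in wild type (2.56 CPM). Against MZdicer it was 4.51-fold lower with the duplex [3.53, 5.798] and 2.43-fold lower with the hairpin [1.99, 2.98].

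Genes of other regions and layers were also called, so the pattern is not shown to be particular to anterior genes. Of 15 posterior neural and tail genes 7 (46.7%) were called lower and 0 higher in MZdicer, beside 5.81% and 16.3% of all measured genes. The 15 include MAF (ENSDARG00000076520), which was not listed and was matched through the name mafb. MAF was not called in MZdicer or in any injected library. After injection 4 (26.7%, duplex), 2 (13.3%, hairpin) and 1 (6.67%, 3xPS hairpin) were higher, with 0 lower. Over all measured genes 1.5%, 0.489% and 0.454% were higher in these libraries, and 6%, 1.99% and 1.09% lower. The hindbrain factor meis3 was 15.3-fold lower in MZdicer [7.27, 38.6], resting on 7 reads, and 5.90-fold higher with the duplex [2.72, 15.2]. In the mesoderm and endoderm list of 17, MZdicer had 6 (35.3%) called lower and 0 higher. With duplex, hairpin and 3xPS hairpin 4 (23.5%), 4 (23.5%) and 2 (11.8%) were higher and 0 lower. The same shares of all measured genes stand beside these counts. Both lists hold tbx16, tbx6, msgn1 and TBXT, so their counts are not separate. Of these genes tbx16, tbx6 and TBXT are also among the relatives counted above. In both, tbx6, msgn1 and TBXT are among the genes lower in MZdicer, and TBXT among those higher with duplex and hairpin. The medians with the duplex were 0.64 for the posterior list and 0.41 for the mesoderm and endoderm list.

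Of 22 measured genes of Wnt, Fgf, retinoic acid and Bmp signalling that promote or oppose head formation, 9 (40.9%) were called lower and 0 higher in MZdicer. Over all measured genes 5.81% were lower and 16.3% higher. FZD8 (ENSDARG00000038569), a Wnt receptor gene, was 4.63-fold lower in MZdicer [3.94, 5.47] and higher than MZdicer in all 3 injected libraries, by 2.16-fold (hairpin) to 2.66-fold (duplex). The other measured FZD8 identifier, ENSDARG00000045444, was called lower in MZdicer but was not called in any injected library against MZdicer. After injection 4 (18.2%, duplex), 2 (9.09%, hairpin) and 3 (13.6%, 3xPS hairpin) of the list were higher, beside 1.5%, 0.489% and 0.454% of all measured genes. In these libraries 0 were lower, beside 6%, 1.99% and 1.09%. The head-promoting Wnt repressor TCF7L1 was 2.80-fold lower in MZdicer [2.66, 2.94], the Wnt antagonist SFRP1 (ENSDARG00000035521) 2.41-fold lower [2.24, 2.60] and the posteriorising ligand WNT8A (ENSDARG00000052910) 2.85-fold lower [2.47, 3.31]. With the duplex SFRP1 (ENSDARG00000035521) was 2.04-fold higher [1.90, 2.21] and ALDH1A2, which makes retinoic acid, 2.38-fold higher [2.21, 2.56]. WNT8A (ENSDARG00000052910) was at 14.8 CPM in MZdicer and 35.6 CPM with the duplex and was called higher. Genes called higher with the duplex thus included the Wnt antagonist SFRP1 (ENSDARG00000035521), near the threshold at a log2 ratio of 1.03. The posteriorising WNT8A (ENSDARG00000052910) and the retinoic acid gene ALDH1A2 were also among them. TCF7L1 (log2 ratio 0.75) and the second SFRP1 (ENSDARG00000057678, 0.75) were not called with the duplex. The second SFRP1 was called higher with the hairpin (2.70-fold [1.39, 5.77]) and the 3xPS hairpin (2.85-fold [1.47, 6.07]), on 11 reads in MZdicer. SFRP1 (ENSDARG00000035521) was called with neither hairpin. frzb, also in the list, was called higher with the 3xPS hairpin (2.06-fold [1.82, 2.34]).

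General neural ectoderm genes had 4 lower and 4 higher of 18 (22.2% each) in MZdicer, beside 5.81% and 16.3% of all measured genes. With the duplex 0 were higher and 2 (11.1%) lower, beside 1.5% and 6%. The lower genes were SOX11 (ENSDARG00000077811), by 2.37-fold [2.28, 2.45], and sox19b, by 2.36-fold [2.24, 2.49]. Both were called higher in MZdicer (474 and 220 CPM) than in wild type (147 and 70.2 CPM). The other measured SOX11 identifier, ENSDARG00000095743, was not called in MZdicer or in any injected library. None of the 18 was called with either hairpin. Of all measured genes, 0.489% (hairpin) and 0.454% (3xPS hairpin) were higher there, and 1.99% and 1.09% lower. Of 25 non-neural ectoderm and epidermis genes 6 (24%) were called lower and 1 (4%) higher in MZdicer, beside 5.81% and 16.3% of all measured genes. The 25 include KLF4 (ENSDARG00000079922), which was not listed and was matched through klf4b, an alternative name of klf17. KLF4 is among the genes called lower in MZdicer. In the injected libraries 0 were called higher, beside 1.5% (duplex), 0.489% (hairpin) and 0.454% (3xPS hairpin) of all measured genes. With the duplex 1 (4%) was called lower and with the hairpin 1 (4%), beside 6% and 1.99% of all measured genes. In both cases this was TP63, which the placode list also holds. The medians of the 25 genes over MZdicer were 0.21 (duplex), 0.11 (hairpin) and -0.13 (3xPS hairpin). Of 18 Eph receptors and ephrins other than epha7, 2 (11.1%) were called higher and 1 (5.56%) lower in MZdicer, shares no larger than the 16.3% and 5.81% of all measured genes. epha2a, epha2b, epha4b and the measured EPHA4 identifiers are also among the 23 relatives above, so these counts are not separate. epha4b is among the Eph genes higher in MZdicer and among those lower with the duplex. With the duplex 0 were higher and 2 (11.1%) lower, beside 1.5% and 6% of all measured genes. None was called with the hairpins, beside 0.489% and 0.454% of all measured genes higher and 1.99% and 1.09% lower. Of 16 T-box, sine oculis and Iroquois relatives, which are among the 23 above, 3 (18.8%) were higher and 6 (37.5%) lower in MZdicer. The higher share was near the 16.3% of all measured genes, of which 5.81% were lower. With the duplex 5 (31.25%) were higher and 1 (6.25%) lower, beside 1.5% and 6% of all measured genes. Each hairpin library had 3 (18.8%) higher and 0 lower, beside 0.489% (hairpin) and 0.454% (3xPS hairpin) of all measured genes higher. The lower shares of all measured genes were 1.99% and 1.09%.

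**Figure D5:**
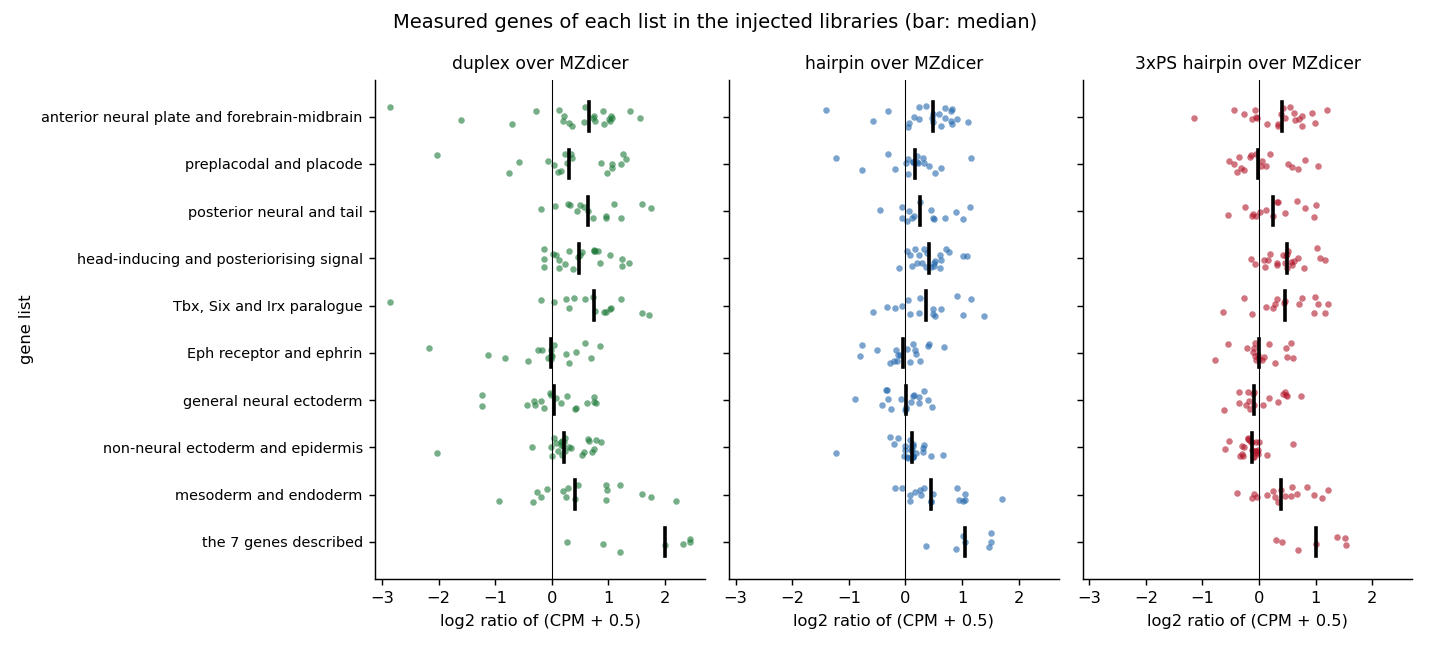
Log2 ratio of (CPM + 0.5) over MZdicer (horizontal axis) for each measured gene of the 9 lists and for the 7 genes described, in the duplex, hairpin and 3xPS hairpin libraries; vertical position within a row is random and black bars are medians. The anterior neural plate list has medians of 0.65, 0.49 and 0.41, and genes of the Eph and general neural lists centre on 0 with the duplex, at -0.01 and 0.03.

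Centred log2 profiles over the 5 libraries were ranked by Euclidean distance to the mean profile of the 7 genes. Only measured genes with a symbol were ranked, and the 7 genes were left out. The nearest were TBXT (ENSDARG00000039806), a brachyury gene of notochord and tail, at 0.20, tfa (0.29), TBX1 (0.36), PKDCC (0.37) and si:ch73-74h11.1 (0.37). They were followed by MDK (ENSDARG00000020708, 0.37), PXDC1 (0.38), GATM (0.40), si:ch211-210b2.2 (0.45) and DBX1 (ENSDARG00000086393, 0.46). The 7 genes themselves lay at 0.77 (tbx3) to 1.73 (epha7) from that mean, so it stands for none of them closely. Among pairs of the 7, tbx3 and otx2 were nearest to each other at 0.42, then six4a and otx2 at 0.48 and six4a and six3 at 0.50, and six3 and epha7 were farthest apart at 2.833. TBXT was at 25.6 CPM in the wild-type pool and 6.22 CPM in the MZdicer pool, against 19.8, 13.1 and 12.6 CPM after injection of duplex, hairpin and 3xPS hairpin.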

How the data were processed

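CASAVA 1.8.2, TopHat2 2.0.8 and the build Zv9 (danRer7) are named in the submitters' processing notes, and libraries were strand-specific, per the labels' protocols. How reads were counted (tool, annotation, strand, multiple matches) is not given in the sources used here, so overlapping genes and near-identical copies are uncertain. The main values are the authors' deposited whole-number counts per gene. The authors' deposited estimated counts, which have fractional parts, were rounded and used as an alternative, as were the deposited RPKM values, which are scaled by gene length and by the sum of the whole-number counts. Symbols came from a table of identifiers, which named 18804 of 26158.

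Counts were scaled with TMM factors (edgeR 4.0.16, R 4.3.3) of 0.967 to 1.02. Ratio intervals are exact conditional binomial and level intervals exact Poisson (SciPy 1.17.1). With 1 library per group no p-value was computed. Alternatives used total counts, upper-quartile factors, DESeq2 1.42.0 size factors, other filters, pseudocounts, thresholds and thinning. The genes and the 9 lists were chosen with earlier results of these data known, and genes named from lists are some of up to 4 called genes per list and comparison with the largest ratios, with further called genes named after their values were seen. Also named are all 7 genes, the called and some other measured relatives, some list genes without a call, and the 10 genes with a symbol nearest in profile. Positions and sequences are not used here. The other list genes are not reported here.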

Additional observations from a re-analysis of the deposited data

How the results depend on the processing

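No ratio of the 7 genes that was called in the main setting reversed under any alternative that gave it a value. Changes of direction in ratios without a call were not looked for. Of 810 ratios under alternatives, 756 kept their call or lack of one, 24 became called and 30 lost their call. The deposited estimated counts and DESeq2 size factors moved none of the counts given below. Upper-quartile factors shifted the median log2 ratio of all genes for MZdicer against wild type from 0.02 to -0.17. A filter at mean CPM 5 leaves out six3, otx2 and epha7, so 4 of the 7 genes were counted there. Of 240 counts of the 7 genes, 34 moved, meaning a change by over 1.5 times or any change to or from 0. Of these, 7 came with the 1.5-fold threshold, 7 with the 3-fold threshold and 10 with the stricter filter, which leaves genes out. Causes beyond the changed setting itself were not tested. By total counts the 7 genes had 1 higher for hairpin against wild type. By upper quartile the 7 genes had 3 lower for hairpin against duplex. At mean CPM 5 the 7 genes had 2 lower for MZdicer against wild type, 2 higher for duplex against MZdicer, 3 higher for hairpin against MZdicer, 2 higher for 3xPS hairpin against MZdicer, 0 lower for hairpin against duplex, 0 higher and 0 lower for duplex against wild type, 2 lower for hairpin against wild type and 0 higher and 2 lower for 3xPS hairpin against wild type. At pseudocount 0.1 the 7 genes had 3 lower for hairpin against duplex and 1 higher for hairpin against wild type. At pseudocount 2 the 7 genes had 2 higher for hairpin against MZdicer, 1 higher for 3xPS hairpin against MZdicer, 0 higher and 0 lower for duplex against wild type and 0 higher for 3xPS hairpin against wild type. At 1.5-fold the 7 genes had 1 higher and 4 lower for hairpin against duplex, 1 higher for 3xPS hairpin against duplex, 1 lower for 3xPS hairpin against hairpin, 2 lower for duplex against wild type, 2 higher for hairpin against wild type and 2 higher for 3xPS hairpin against wild type. At 3-fold the 7 genes had 0 higher for hairpin against MZdicer, 0 higher for 3xPS hairpin against MZdicer, 0 lower for hairpin against duplex, 0 higher and 0 lower for duplex against wild type, 2 lower for hairpin against wild type and 0 higher for 3xPS hairpin against wild type. After thinning the 7 genes had 1 higher for hairpin against wild type. Calls of low genes thus depend on the pseudocount and on the threshold. Of 864 list counts, 123 moved, and they are given here by list. By total counts, MZdicer against wild type had 2 general neural genes lower. By upper quartile, MZdicer against wild type had 3 Eph genes lower. By upper quartile, duplex against MZdicer had 7 mesoderm and endoderm genes higher. Without a filter, MZdicer against wild type had 1 posterior and 1 signalling genes higher. At mean CPM 5, MZdicer against wild type had 1 placode and 1 Eph genes higher and 3 placode genes lower. At mean CPM 5, duplex against MZdicer had 2 anterior neural, 1 placode, 2 posterior and 3 Tbx-Six-Irx genes higher and 1 Eph gene lower. At mean CPM 5, hairpin against MZdicer had 0 anterior neural, 0 placode, 1 posterior and 1 signalling genes higher. At mean CPM 5, 3xPS hairpin against MZdicer had 0 anterior neural, 0 placode, 0 posterior and 1 mesoderm and endoderm genes higher. At pseudocount 0.1, hairpin against MZdicer had 3 anterior neural genes higher and 1 Eph gene lower. At pseudocount 0.1, 3xPS hairpin against MZdicer had 3 anterior neural, 3 posterior and 5 Tbx-Six-Irx genes higher. At pseudocount 2, MZdicer against wild type had 2 anterior neural and 1 Eph genes higher. At pseudocount 2, duplex against MZdicer had 1 placode, 2 posterior and 3 Tbx-Six-Irx genes higher and 1 Eph gene lower. At pseudocount 2, hairpin against MZdicer had 0 anterior neural, 0 placode, 0 posterior, 0 signalling, 1 Tbx-Six-Irx and 0 mesoderm and endoderm genes higher. At pseudocount 2, 3xPS hairpin against MZdicer had 0 anterior neural, 0 placode, 0 posterior, 1 signalling, 1 Tbx-Six-Irx and 1 mesoderm and endoderm genes higher. In RPKM, MZdicer against wild type had 2 general neural genes lower. In RPKM, hairpin against MZdicer had 3 anterior neural genes higher. In RPKM, 3xPS hairpin against MZdicer had 3 anterior neural, 2 posterior and 5 Tbx-Six-Irx genes higher. At 1.5-fold, MZdicer against wild type had 10 Tbx-Six-Irx, 3 Eph, 7 general neural and 12 epidermis genes lower and 1 mesoderm and endoderm gene higher. At 1.5-fold, duplex against MZdicer had 11 anterior neural, 7 posterior, 9 signalling, 9 Tbx-Six-Irx, 3 Eph, 4 general neural, 6 epidermis and 7 mesoderm and endoderm genes higher and 3 placode and 1 mesoderm and endoderm genes lower. At 1.5-fold, hairpin against MZdicer had 10 anterior neural, 2 placode, 4 posterior, 7 signalling, 5 Tbx-Six-Irx, 1 Eph and 1 epidermis genes higher and 2 placode, 2 Eph and 1 general neural genes lower. At 1.5-fold, 3xPS hairpin against MZdicer had 7 anterior neural, 3 placode, 4 posterior, 7 signalling, 7 Tbx-Six-Irx, 1 Eph, 1 general neural, 1 epidermis and 5 mesoderm and endoderm genes higher and 1 Tbx-Six-Irx, 1 Eph, 1 general neural and 1 epidermis genes lower. At 3-fold, MZdicer against wild type had 3 anterior neural genes higher and 1 anterior neural, 2 placode, 1 signalling, 0 Eph, 0 general neural and 2 epidermis genes lower. At 3-fold, duplex against MZdicer had 0 anterior neural, 0 placode, 2 posterior, 0 signalling and 2 Tbx-Six-Irx genes higher and 1 Eph and 0 general neural genes lower. At 3-fold, hairpin against MZdicer had 0 anterior neural, 0 placode, 0 posterior, 0 signalling, 0 Tbx-Six-Irx and 1 mesoderm and endoderm genes higher and 0 anterior neural, 0 placode and 0 epidermis genes lower. At 3-fold, 3xPS hairpin against MZdicer had 0 anterior neural, 0 placode, 0 posterior, 0 signalling, 0 Tbx-Six-Irx and 0 mesoderm and endoderm genes higher and 0 anterior neural genes lower. After thinning, duplex against MZdicer had 1 mesoderm and endoderm gene lower. After thinning, hairpin against MZdicer had 2 anterior neural, 1 posterior, 1 signalling and 2 mesoderm and endoderm genes higher. After thinning, 3xPS hairpin against MZdicer had 2 posterior genes higher. Over all measured genes, the number higher with the duplex than in MZdicer was 212 and ranged from 31 to 871, and counts for the other comparisons also changed with the threshold. No paired analysis was possible because each group has 1 library. For the same reason no library could be left out, and the RPKM alternative gave no levels. The counts of 9 (six3) and 11 (otx2) reads in MZdicer, the shallowest library, set the width of the intervals of their folds.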

Other observations

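Genes nearest to single members were looked up after the values were seen and are given as values over 5 libraries. Only measured genes with a symbol were ranked, and the 7 members were left out. six4a lay nearer to the members otx2 (0.48) and six3 (0.50) than to any gene ranked here. noxo1a was the nearest gene to both tbx3 (distance 0.35) and otx2 (0.36), at 21.4 CPM in the wild-type pool and 4.08 CPM in the MZdicer pool, against 17.8, 6.78 and 5.01 CPM after injection of duplex, hairpin and 3xPS hairpin. meis3 was nearest to six4a (0.58) and six3 (0.45), at 7.16 CPM in the wild-type pool and 0.468 CPM in the MZdicer pool, against 2.76, 1.62 and 1.45 CPM after injection of duplex, hairpin and 3xPS hairpin. For epha7 the nearest gene was the forkhead gene foxf2a (0.26), at 0.511 CPM in the wild-type pool and 0.334 CPM in the MZdicer pool, against 1.78, 1.22 and 1.90 CPM after injection of duplex, hairpin and 3xPS hairpin. For irx7 the nearest gene was TMEM276-ZFTRAF1 (0.04), and for tbr1 it was COL6A2 (0.513), followed by ACOT11 (0.518) and GSC (0.523). GSC, a homeobox gene of the dorsal organizer, was at 37.8 CPM in the wild-type pool and 27.8 CPM in the MZdicer pool. Its levels were 37.2, 53.9 and 50.2 CPM after injection of duplex, hairpin and 3xPS hairpin.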
